A study of Saccharomyces cerevisiae with 24 samples.

Results

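Chromatin of yeast colonies was compared between 20 mg and 100 mg of starting colony material. The comparison used 6 FAIRE peak lists, 3 from 20 mg and 3 from 100 mg, out of 12 such lists in a series of 24 samples. Members were chosen by the labelled biomass alone. FAIRE (formaldehyde-assisted isolation of regulatory elements) recovers DNA that little protein holds: after formaldehyde fixation and shearing, extraction with phenol and chloroform leaves fragments not crosslinked to protein in the aqueous phase. Such DNA is known from nucleosome-depleted regions, which in budding yeast lie mostly just upstream of genes, and a peak is a stretch where the FAIRE library exceeds its input of unfixed DNA.

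Both groups came from giant colonies of BY4742, a haploid laboratory strain (mating type alpha) that carries deletions in the marker genes HIS3, LEU2, LYS2 and URA3, and no further mutation or treatment is named in the labels. Colonies grew at 28 °C on GMA, a glycerol and ethanol medium with a little glucose and a dye that reports pH, and cells were lifted with a spatula after 3 days. The 20 mg and 100 mg samples therefore differ, as far as the labels say, only in how much colony was processed. A subpopulation of a colony mixes cells of unlike state, and FAIRE gives 1 profile over all of them. Each list was made from 1 FAIRE library and its own input, so 20 mg and 100 mg had 3 replicates each. With 3 lists against 3, the exact permutation test has 20 splits and cannot go below a two-sided p of 0.1, so no single difference here could pass a threshold of 0.05. Differences are therefore given with their replicate values and with whether the 2 biomasses overlap.

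The lists from 20 mg held 6173, 6436 and 6164 nuclear peaks in replicates 1, 2 and 3, against 4157, 4961 and 5737 in those from 100 mg. Every 20 mg list was longer than every 100 mg list, and the 100 mg lists were far more unequal among themselves. The means were 6258 ± 155 and 4952 ± 790 peaks (SD, n = 3 each), a difference of 1306 (two-sided exact permutation p = 0.1, the smallest possible). Peaks of the 20 mg lists covered 2678 ± 223 kb in all, and those of the 100 mg lists 2085 ± 304 kb, again without overlap (exact p = 0.1). Peaks with a deposited −log10 q of 5 or more numbered 5626, 5576 and 5805 at 20 mg and 3284, 4607 and 3703 at 100 mg. The lists' median peak width was 299, 286 and 308 bp at 20 mg and 339, 293 and 304 bp at 100 mg, which overlapped. Among stretches with exactly 1 peak in each list, however, the median width was 390.2 ± 3.75 bp at 20 mg and 336.3 ± 19.5 bp at 100 mg, without overlap (SD over 3 lists; exact p = 0.1). Replicate 1 of 100 mg stood apart: it had the fewest peaks and a shortest peak of 210 bp, where the other 5 lists had shortest peaks of 157 to 167 bp. As a check of the strain, none of the 6 lists had a peak in LEU2, LYS2 or URA3, and all 6 had one in HIS3, whose deletion in this strain removes only part of the gene.

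The additional peaks of 20 mg lay in coding sequence. Further than 300 bp into a coding sequence, the 20 mg lists held 3527, 3753 and 3402 summits (the highest point of each peak), and the 100 mg lists 2108, 2554 and 2993. Their means of 3561 ± 178 and 2552 ± 443 differed by a factor of 1.395, without overlap (SD, n = 3 each; exact p = 0.1). Within 300 bp after the start codon, where the first nucleosomes of a gene lie, the means were 1456 ± 12.5 and 1167 ± 130 summits, also without overlap and a factor of 1.25 apart.

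Noncoding gaps, where promoters lie, held nearly the same number of summits at both biomasses. Gaps between divergent genes, which hold a pair of promoters, had 538, 563 and 547 summits at 20 mg and 442, 522 and 649 at 100 mg. Gaps between genes in tandem, which hold 1 promoter and 1 gene end, had 592, 609 and 629 at 20 mg and 482, 599 and 699 at 100 mg. The 100 mg lists straddled the 20 mg lists in both classes (exact p = 0.8 for each). Convergent gaps, which lie between 2 gene ends, had 63.3 ± 22.5 summits at 20 mg and 77.0 ± 10.4 at 100 mg, and they too overlapped.

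**Figure D1:**
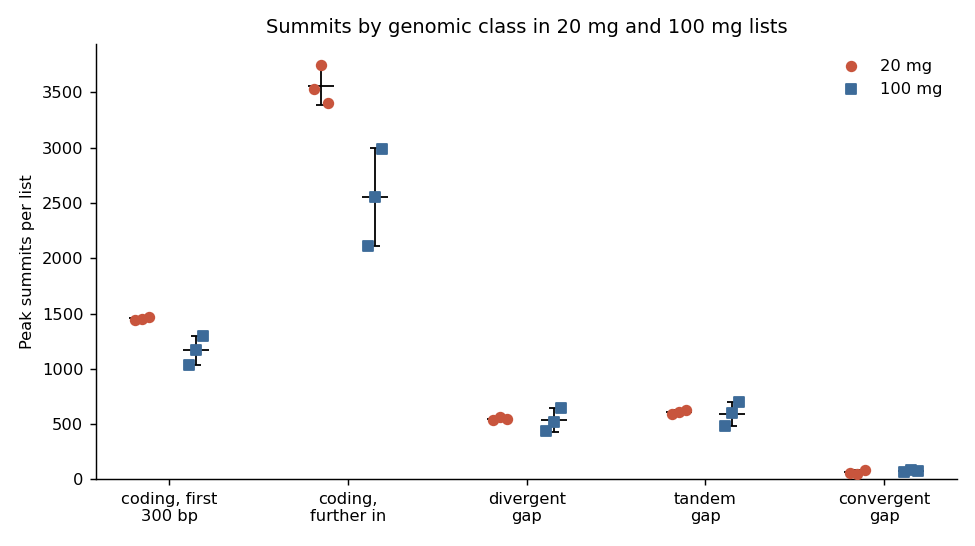
Peak summits per list (vertical axis, number) in 5 genomic classes, with 20 mg as circles and 100 mg as squares, 1 symbol per replicate and a bar for the mean ± SD (n = 3). In coding sequence further than 300 bp in, the 20 mg lists lie at 3402 to 3753 and the 100 mg lists at 2108 to 2993, while the gap classes overlap.

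As shares of all summits, deep coding sequence was higher at 20 mg and the promoter gaps lower. Deep coding sequence took 57.1, 58.3 and 55.2% of summits at 20 mg and 50.7, 51.5 and 52.2% at 100 mg, and it makes up 58.3% of the genome. At 20 mg its summits were thus about as frequent as its length, and at 100 mg they were below it. Divergent gaps held 8.78 ± 0.084% of summits at 20 mg and 10.8 ± 0.428% at 100 mg, beside 8.83% of the genome. Tandem gaps held 9.75 ± 0.397% at 20 mg and 11.95 ± 0.313% at 100 mg (n = 3 each, SD), at both below their 13.7% of the genome. The window of 500 bp upstream of a start codon held 21.5 ± 0.356% and 25.1 ± 0.642%, beside 21.3% of the genome. Gaps at chromosome ends held 0.295 ± 0.157% and 0.497 ± 0.0304%. None of these 5 shares overlapped between biomasses (exact p = 0.1 each, Benjamini-Hochberg adjusted p = 0.16 over 8 classes), but all 5 overlapped once each list was limited to the same number of peaks, and chromosome ends also with −log10 q of 5 or more. The first 300 bp of coding sequence took 23.3 ± 0.62% at 20 mg and 23.7 ± 1.16% at 100 mg, more than its 14.5% of the genome at both. The outer 20 kb of the chromosomes took 5.22 ± 0.844% and 6.01 ± 0.577%, which overlapped (exact p = 0.3).

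The position of the extra summits is visible along the average gene. Between 100 and 200 bp after the start codon, the highest point of the profile, a list held 605 ± 13.5 summits at 20 mg and 501 ± 53.5 at 100 mg (mean ± SD, n = 3 each). Between 900 and 1000 bp the numbers were 165 ± 11.7 and 111 ± 30.7. Upstream, between 300 and 200 bp before the start codon, they were 294 ± 11.3 and 274 ± 56.0. In the last 100 bp before the start codon they were 65.0 ± 7.21 and 65.3 ± 26.5, the lowest point at both biomasses.

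**Figure D2:**
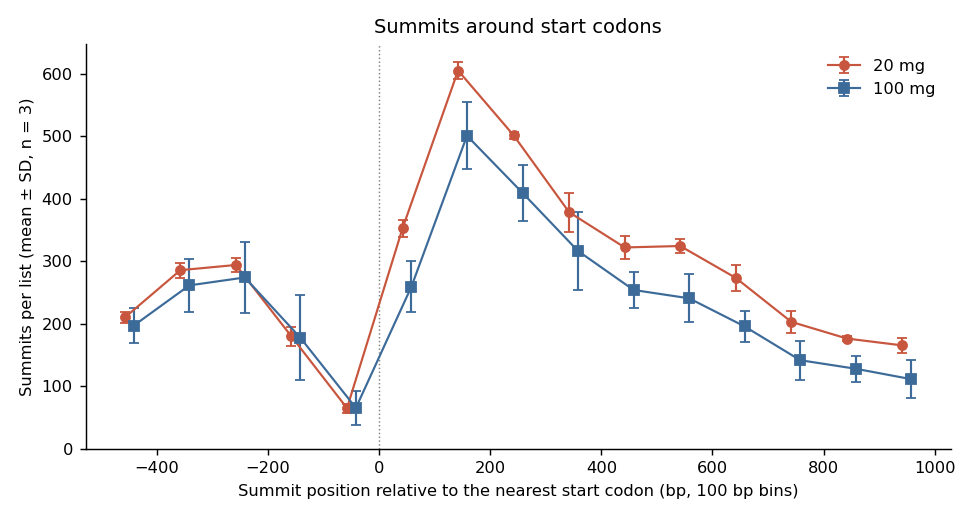
Summits per list (vertical axis, mean ± SD, n = 3) in 100 bp bins around the nearest start codon (horizontal axis, bp, negative upstream), with 20 mg as circles and 100 mg as squares, drawn slightly apart. The curves lie within each other's error upstream of the start codon, and the 20 mg curve is above the 100 mg curve in the bins after it.

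The class difference moved with the length of the lists and, in part, with peak strength. When each list was limited to its 4157 strongest peaks, the number in the shortest list, deep coding sequence held 52.7 ± 1.88% of summits at 20 mg and 48.6 ± 2.25% at 100 mg, and the lists overlapped. With peaks of −log10 q of 5 or more, the shares were 55.8 ± 1.42% and 48.0 ± 3.35%, without overlap. Ranked by their deposited −log10 p within each list, the weakest 25% of peaks were most often deep in coding sequence at both biomasses, with 65.7 ± 1.72% at 20 mg and 61.8 ± 7.89% at 100 mg. In the strongest 25% the share was 43.1 ± 0.772% and 36.9 ± 6.84%. Of the 4 groups of equal size, the one between the median and the strongest 25% was without overlap, with 57.4 ± 3.2% at 20 mg and 49.4 ± 1.86% at 100 mg. The part of read depth in these differences was not tested.

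Gene by gene, 58.3, 59.2 and 57.4% of the 6002 nuclear coding sequences held a summit in the 20 mg lists, against 41.6, 46.8 and 52.2% in the 100 mg lists. The groups did not overlap, and their means of 58.3 ± 0.866% and 46.9 ± 5.29% were 11.4 percentage points apart (exact p = 0.1). The difference was present in short and in long genes. Of the 1996 shortest, 41.4 ± 0.512% held a summit at 20 mg and 33.7 ± 3.15% at 100 mg. Of the 2001 longest, 70.6 ± 1.05% did at 20 mg and 56.0 ± 6.37% at 100 mg. Promoters, taken as the 500 bp before a start codon, behaved otherwise: 25.7, 27.2 and 25.2% of 6000 were marked by a summit at 20 mg and 20.2, 23.7 and 29.3% at 100 mg (exact p = 0.7). Replicate 3 of 100 mg marked more promoters than any 20 mg list, and the sign of the mean difference, 1.61 percentage points, turned to -0.5 without 100 mg replicate 1 and to -2.33 with equal numbers of peaks.

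A feature is called gained at 1 biomass where all 3 of its lists, and none of the other biomass, had a summit in it. Coding sequences gained at 20 mg numbered 180, which was 3% of those tested. The reverse pattern was seen in 9, or 0.15%. For promoters the counts were 31 (0.517% of those tested) and 15 (0.25%), a balance that depended on the setting: with equal numbers of peaks it was 16 and 23, and counted by an overlap of 50 bp it was 46 and 0. Single genes cannot be called by a test in this design. The great majority of genes sat elsewhere: 1955 coding sequences and 715 promoters had a summit in all 6 lists, and 1882 and 3568 had none. With equal numbers of peaks the coding counts became 65 and 17, of which 34 and 8 were among the 180 and the 9. Without 100 mg replicate 3, the longest list of its biomass, they were 428 coding sequences and 100 promoters gained at 20 mg. Leaving out any list makes the rule easier to meet, since 2 lists in place of 3 have to agree.

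**Figure D3:**
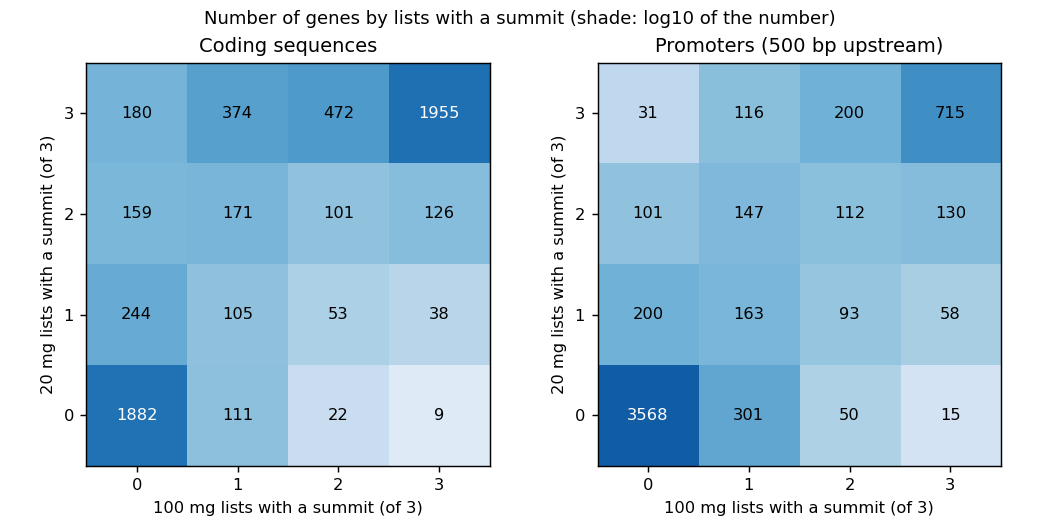
Number of coding sequences (left) and of promoters (right) by the number of 20 mg lists (vertical axis, 0 to 3) and of 100 mg lists (horizontal axis, 0 to 3) with a summit in them, with darker shade for a higher number on a log scale. In coding sequences the corner for 3 lists of 20 mg and 0 of 100 mg holds 180 genes and the opposite corner 9, while in promoters these corners hold 31 and 15.

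Most of the 31 promoters gained at 20 mg were marked from inside the neighbouring gene. In 24 of them (77.4%) the strongest summit lay within a neighbour's coding sequence in all 3 lists, and in 5 it lay outside coding sequence in all 3. Of all summits in promoter windows, 39.4 ± 0.673% at 20 mg and 36.2 ± 3.57% at 100 mg lay in a coding sequence (SD, n = 3 each). Of the 15 promoters gained at 100 mg, 5 were of the first kind and 9 of the second. The median rank of the 31 was at percentile 38.7 of the peaks of their own list, and that of the 15 at 50.6. Promoters marked in all 6 lists stood at 75.6. These sets are not matched, since a promoter unmarked in 3 lists is more likely to hold weak peaks.

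The named promoters were the 10 per direction with the highest mean fold enrichment over the lists that marked them, a value of the authors' peak caller that was not compared between biomasses. TMA10, which encodes a ribosome-associated protein, headed those of 20 mg (window chrXII:783388-783887, minus strand, mean fold 3.09). Its summits lay 455, 447 and 436 bp before the start codon at 20 mg, and the nearest ones at 100 mg lay 515, 592 and 534 bp before it. All 3 lists of 100 mg thus had a peak there, with its summit just outside the window. PHO8, the vacuolar alkaline phosphatase, was alike: summits were 234, 458 and 490 bp before the start at 20 mg and 506, 516 and 508 bp at 100 mg (chrIV:1420251-1420750, minus strand). In both promoters every list had a peak, and the call rests on which side of the window's edge the summit lay. For PHO8, replicate 3 of 20 mg at 490 bp was close to the 100 mg positions. Its 3 summits of 20 mg lay inside the neighbouring gene CWC21.

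Peaks absent at 100 mg were found at other named promoters. COX5B, the isoform of a cytochrome c oxidase subunit used at low oxygen, had summits 467, 478 and 485 bp before its start at 20 mg (chrIX:154722-155221, plus strand), inside HOS4, a gene of a histone deacetylase complex. The nearest summits of the 100 mg lists were 2880 to 3012 bp away from their mean. TFC7, a subunit of the RNA polymerase III factor TFIIIC, had summits 458, 460 and 452 bp upstream at 20 mg, within INP53, and the nearest at 100 mg were 844, 819 and 851 bp upstream. TFC7 was gained at 20 mg in its coding sequence too, with summits 134, 129 and 121 bp after the start codon. IRC24 had summits at 494, 489 and 484 bp upstream, and these are the same peaks that gained the coding sequence of HYR1, a thiol peroxidase that senses hydrogen peroxide. The promoter of YHL005C and the coding sequence of MRP4, a mitochondrial ribosomal protein, likewise shared peaks, since the window lies inside MRP4. The window held 2 summits in each list of 20 mg. CDC123, YJR149W, PAN2 and ARH1 completed the 10, with mean folds of 2.30 to 2.43. No list of 100 mg covered 50 bp or more of the windows of TFC7, YJR149W, CDC123, COX5B, IRC24, PAN2 or ARH1.

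Promoters gained at 100 mg were, in contrast, covered by peaks at 20 mg. Of the 15, 10 were covered by at least 50 bp in all 3 lists of 20 mg and the other 5 in 1 or 2, so none was free of peaks. Of the 31 in the reverse direction, 21 were covered in no list of 100 mg and 2 in all. TNA1, the nicotinic acid permease, led those of 100 mg (chrVII:1011985-1012484, plus strand, mean fold 2.68), with summits 478, 498 and 490 bp upstream in noncoding DNA. The nearest 20 mg summits were 577 to 658 bp away from the mean of these positions. MET10, a subunit of sulfite reductase, had summits 143, 187 and 206 bp before its start at 100 mg, and the nearest at 20 mg were 593, 590 and 590 bp before it. YAT1, a carnitine acetyltransferase of the outer mitochondrial membrane, had them 114, 159 and 123 bp upstream. DOT6, a repressor of ribosome biogenesis genes, had summits 462, 442 and 434 bp upstream at 100 mg, and 599, 507 and 555 bp at 20 mg. NOP13, a nucleolar protein, is listed only because of the window: its summits at 499, 490 and 499 bp at 100 mg have the 20 mg summits at 507, 503 and 503 bp beside them, just outside it. NVJ1, YHR033W, ATS1, PTH1 and SND1 were the other 5. Summits of NVJ1, ATS1 and PTH1 lay inside the neighbouring genes MDM31, FUN30 and GPI16 in all 3 lists. GPI16 is itself among the coding sequences gained at 100 mg. Those of SND1 did not share a position, at 493, 454 and 5 bp upstream.

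The 180 coding sequences gained at 20 mg lay mostly where the 100 mg lists had no peak. In 161 of them no 100 mg list covered 50 bp, in 18 some did, and in 1 all 3 did. In 174 no summit of a 100 mg list lay within 150 bp of the mean 20 mg position. The choice itself favours these counts, since it allows no 100 mg summit anywhere in the gene. Their median rank was at percentile 30.8 of the peaks of their own list, and their genes had a median length of 1534 bp, against 1200 bp for all coding sequences. Summits lay at a median of 47.0% of the gene's length. The rule asks only for a summit in the gene, so the lists need not share a position, and in GLC3, HSP104 and FAA2 below they did not. MCH2, a homologue of monocarboxylate transporters (chrXI:6107-7528, plus strand), was a sharply placed case. Its summits at 20 mg were 912, 914 and 915 bp after the start codon, and no list of 100 mg had a peak in the gene. MSC2, a zinc transporter of the endoplasmic reticulum (chrIV:859346-861520, plus strand), had them at 1884, 1909 and 1886 bp. BMT6, a methyltransferase for ribosomal RNA, had them at 429, 442 and 449 bp, and NOT5, a subunit of the CCR4-NOT complex, at 818, 784 and 795 bp. YJL028W, which had the highest mean fold (2.84), was the exception in which all 3 lists of 100 mg covered the gene, with their nearest summits beyond its end.

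All 9 coding sequences gained at 100 mg were covered at 20 mg as well, by 50 bp or more in every list. What differed was the summit. In 7 of the 9 the nearest 20 mg summit lay upstream of the start codon in all 3 lists. HMX1, the heme oxygenase (chrXII:552724-553677, minus strand), had summits 571, 499 and 513 bp into the gene at 100 mg, and the nearest at 20 mg were 324, 256 and 273 bp before it. INH1, the inhibitor of the mitochondrial ATP synthase, had them 86, 82 and 97 bp after the start at 100 mg, and at 20 mg 282, 483 and 291 bp before it. LGE1, which acts in histone H2B ubiquitination, had them at 442, 419 and 423 bp at 100 mg, and at 20 mg 216, 187 and 201 bp before the start. TES1, a peroxisomal thioesterase, STT3, of the oligosaccharyltransferase, GPI16, of the GPI transamidase, and YAR068W were of the same kind. In YEL008W and SGA1, the sporulation glucoamylase, the nearest 20 mg summits lay beyond the stop codon.

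Counting summits instead of presence gave 346 coding sequences (5.76% of 6002) with more in every 20 mg list than in any 100 mg list, and 24 (0.4%) with fewer. The genes that follow were chosen after their values were seen. FAS1, the beta subunit of fatty acid synthase, held 4, 6 and 5 summits at 20 mg and 0, 0 and 1 at 100 mg. KAP123, a nuclear import receptor, held 3 in each list of 20 mg and none at 100 mg. STT4, a phosphatidylinositol kinase, held 5, 5 and 5 at 20 mg and 1, 3 and 2 at 100 mg. FIG2, a cell wall adhesin of mating cells, held 5, 5 and 6 at 20 mg and 2, 2 and 3 at 100 mg. On the other side, ACS1, an acetyl-CoA synthetase, held 1 summit in each list of 20 mg and 2 in each of 100 mg. GUT1, the glycerol kinase, held 1, 1 and 1 at 20 mg and 2, 2 and 3 at 100 mg.

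Without reference to genes, the 6 lists merged into 7114 regions. Of these, 370 (5.2%) were covered by all 3 lists of 20 mg and by none of 100 mg, and 1 (0.0141%) the other way round, a convergent gap. With equal numbers of peaks the counts were 90 and 11, and without 20 mg replicate 3 the reverse count was 65. The 370 had a median length of 227 bp, against 336 bp for all regions, and came to 96.2 kb. These lengths are not matched, since the 370 merge peaks of 3 lists and other regions up to 6. Regions covered by all 6 lists had a median of 569 bp. Deep coding sequence held 286 of the 370 (77.3%, against 57.2% of all regions). The first 300 bp of genes held 70, tandem gaps 7, divergent gaps 3, convergent gaps 2 and chromosome ends 2. In the lists of other biomasses the 370 were covered less often than regions in general. The 2 sets are not matched, since the 370 had to be absent from all lists of 100 mg. Of all regions, 40.9% were covered by all 6 lists of 20 mg and 100 mg. At 4 mg they were covered in 26.8, 14.3 and 30.8%, where all regions reached 62.0, 53.5 and 63.4%. At 500 mg they were covered in 39.7, 47.3 and 46.5%, where all regions reached 64.1, 66.3 and 66.3%. The 500 mg lists held more of them than any 4 mg list. The 180 coding sequences gave the same order: 21.1, 16.1 and 25.6% of them held a summit at 4 mg and 33.3, 44.4 and 43.3% at 500 mg, below all coding sequences, with 42.3 to 47.9% at 4 mg and at least 48.2% at 500 mg. These sets are not matched either, as 1955 of all coding sequences had a summit in all 6 lists of 20 mg and 100 mg. Of the 9 gained at 100 mg, 44.4, 100 and 44.4% held a summit at 4 mg and 22.2, 33.3 and 22.2% at 500 mg. Of the 31 promoters, 35.5, 25.8 and 38.7% were marked at 4 mg and 48.4, 41.9 and 54.8% at 500 mg. Of all promoters, 21.3 to 23.2% were marked in those 6 lists. The 2 sets are not matched: the 31 were chosen as marked in 3 lists, while 3568 of all promoters had no summit at 20 mg or 100 mg. A higher share of the 31 therefore follows from the choice.

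Gene lists by function followed the whole genome. In 18 of 37 lists (48.6%) the percent of coding sequences with a summit was higher in every 20 mg list than in any 100 mg list, in none was it lower, and the genome as a whole showed the same separation. The 1040 genes in the lists included 31 of the 180 coding sequences gained at 20 mg, or 2.98% of the members, beside 3% of all coding sequences. They also included 3 of the 9 gained at 100 mg, or 0.288% of the members, beside 0.15% of all. Promoters were higher without overlap in 1 of 37 lists (2.7%), that of autophagy genes, which recycle cell contents. These were marked in 23.4 ± 1.56% at 20 mg and 18.0 ± 1.56% at 100 mg (SD over 3 lists). Their 1 promoter gained at 20 mg, that of ATG21, had its strongest summit inside the neighbouring gene ELP4 in all 3 lists.

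**Figure D4:**
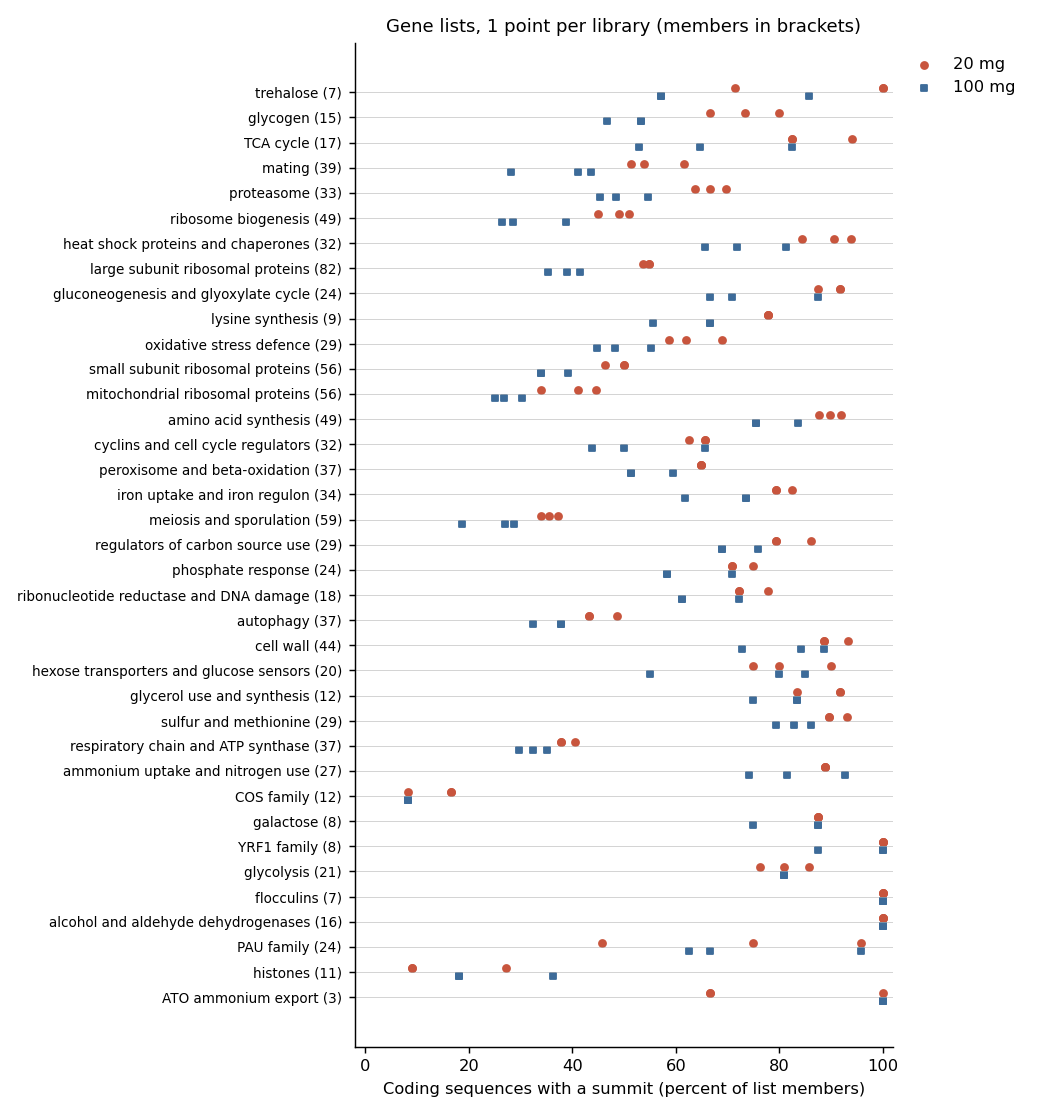
Percent of the members of 37 gene lists whose coding sequence held a summit (horizontal axis), with 1 circle per 20 mg list and 1 square per 100 mg list, and the number of members in brackets. Lists run from the largest excess at 20 mg at the top to the largest deficit at the bottom, and equal values hide each other. Large subunit ribosomal proteins lie at 53.7 to 54.9% at 20 mg and 35.4 to 41.5% at 100 mg.

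Genes of protein synthesis and breakdown were among the lists without overlap. Coding sequences of large subunit ribosomal proteins held a summit in 54.9, 53.7 and 54.9% at 20 mg and 39.0, 35.4 and 41.5% at 100 mg. RPL34A, RPL28 and RPL9B were the 3 of 82 gained at 20 mg, and RPS24B the 1 of 56 small subunit genes. Many ribosomal proteins have a near-identical second gene, and the handling of reads that map to both was not stated. Mitochondrial ribosomal proteins held a summit in 44.6, 41.1 and 33.9% at 20 mg and 25, 26.8 and 30.4% at 100 mg, and MRPL16, MRP4, MRPL38 and MRPL15 were the 4 of 56 gained. Ribosome biogenesis genes gained 2 of 49, the helicase gene DBP3 and UTP14. Proteasome genes stood at 69.7, 66.7 and 63.6% at 20 mg and 48.5, 54.5 and 45.5% at 100 mg, with PRE7, RPT2 and SCL1 gained out of 33.

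Genes of carbon stores and respiration, which matter on glycerol and ethanol, were uneven. Glycogen genes held a summit in 80.0, 66.7 and 73.3% at 20 mg and 46.7, 53.3 and 53.3% at 100 mg, without overlap. The branching enzyme gene GLC3 and the glycogenin gene GLG1 were gained, and so was ATH1, the acid trehalase. In GLC3 the 20 mg lists held 2, 3 and 1 summits, and the strongest lay apart, at positions 134692, 133919 and 133556 of chromosome V. TCA cycle genes stood at 86.3% on average at 20 mg and 66.7% at 100 mg with overlap, and SDH2, a subunit of succinate dehydrogenase, was gained. The respiratory chain list stood at 38.7% at 20 mg and 32.4% at 100 mg, without overlap, with ATP16 gained of 37. Alcohol and aldehyde dehydrogenase genes and flocculins held a summit in all members in every list, and glycolytic genes averaged 81.0% at both biomasses. The carbon source regulator SIP4 was gained, with summits at positions 130 bp into the gene on average. YAT1, named above, and MET10 were the list members whose promoters were gained at 100 mg, and COX5B, PHO8, ATG21, SPO20 and CLB6 those gained at 20 mg. These were 0.192% and 0.481% of the members, beside 0.25% and 0.517% of all promoters.

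Stress and recycling genes completed the lists. Heat shock proteins and chaperones held a summit in 90.6, 93.8 and 84.4% at 20 mg and 65.6, 71.9 and 81.2% at 100 mg, without overlap. HSP104, a disaggregase, and HSP10, the mitochondrial cochaperonin, were gained. The strongest HSP104 summits did not share a position in all lists of 20 mg (90212, 89557 and 89569 of chromosome XII). Of 37 autophagy genes, ATG1, the kinase that starts the process, and VPS30, of the phosphatidylinositol kinase complex, were gained in their coding sequences. ATG1 summits lay 1569 bp into the gene on average. Further gains were HIS6 and SER33 of amino acid synthesis, the sulfate permease SUL1, the polyphosphate synthase gene VTC4, the ferric reductase FRE1, HYR1, and the peroxisomal genes FAA2 and DCI1. In FAA2 the strongest summit of replicate 3 of 20 mg lay apart from the others (184843, 184866 and 186196 of chromosome V). HMX1, TES1 and SGA1, described above, were the members gained at 100 mg. Lists with a lower mean at 20 mg were histones (15.2% and 24.2%), ATO ammonium exporters (77.8% and 100% of 3 genes) and the PAU family (72.2% and 75.0%), all with overlap. The PAU family is made of near-identical subtelomeric copies.

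Summit positions were compared where every list had a peak. Of 2907 regions covered in all 6 lists, 2050 held exactly 1 peak in each. Another 9 (0.31% of the 2907) held more peaks in every 20 mg list than in any 100 mg list, and 33 (1.14%) fewer, which were long regions with a median of 1452 bp. The median displacement between the mean summit of 20 mg and that of 100 mg was 16 bp. Within a biomass the 3 summits of a region spanned a median of 40 bp at 20 mg and 43 bp at 100 mg, a range of single values that is not comparable with a difference of means. A displacement of 50 bp or more without overlap was seen in 70 regions (3.41%). Of these, 30 moved towards the nearest start codon at 20 mg and 40 away from it, and 39 lay further downstream and 31 further upstream. With any 1 list left out, 132 to 205 regions met this rule. Displaced summits were found in 38 of 992 regions deep in coding sequence (3.83%), 23 of 506 in the first 300 bp (4.55%), 6 of 253 in divergent gaps (2.37%), 3 of 278 in tandem gaps (1.08%) and 0 of 20 in convergent gaps.

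The largest displacement was in PRP45, a splicing factor gene (chrI:83297-84555). Its summit lay 294, 367 and 396 bp after the start codon at 20 mg and 898, 805 and 846 bp at 100 mg, so it was 497 bp nearer the start at 20 mg. The peak itself was about as wide, 1224 bp at 20 mg and 1212 bp at 100 mg on average. MDS3 had summits at 2359, 2348 and 2373 bp at 20 mg and 2629, 2660 and 2683 bp at 100 mg (chrVII:126905-127527). LRE1 had them at 166, 175 and 147 bp at 20 mg and 362, 430 and 356 bp at 100 mg, and HRK1, a kinase acting on the plasma membrane proton pump, at 1727, 1761 and 1753 bp at 20 mg and 1929, 1939 and 1942 bp at 100 mg. In these 4 genes both biomasses were tight and far apart. PET130 and GLE1 completed the 6, and in GLE1 the gap between the groups was narrow, with 180, 216 and 192 bp at 20 mg and 591, 235 and 263 bp at 100 mg.

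APE3, the vacuolar aminopeptidase Y (chrII:774983-775791), showed the largest move away from the start, with summits at 979, 962 and 973 bp at 20 mg and 515, 531 and 617 bp at 100 mg. YML018C was as clear, with 630, 631 and 640 bp at 20 mg and 392, 446 and 317 bp at 100 mg. In the other 4 the 20 mg lists were split. PDA1, of pyruvate dehydrogenase, had summits at 640, 500 and 75 bp at 20 mg and 46, 65 and 40 bp at 100 mg. PPZ2, a protein phosphatase, had them at 857, 217 and 175 bp at 20 mg and 168, 170 and 157 bp at 100 mg. SCJ1 and the region upstream of VMA1, the catalytic subunit of the vacuolar proton pump, had 1 of the 3 lists of 20 mg near the 100 mg position.

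**Figure D5:**
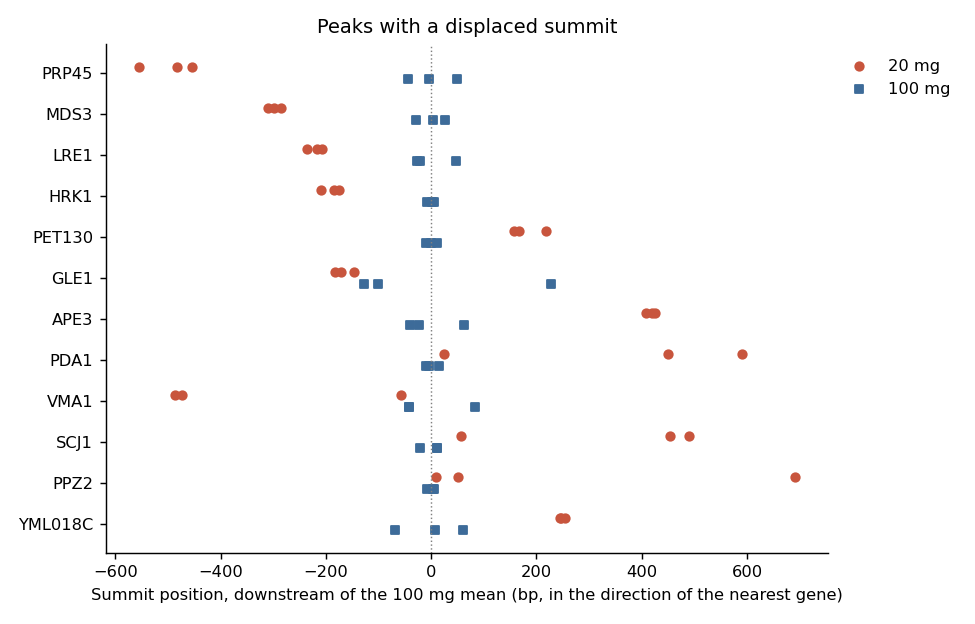
Summit position in each list relative to the mean of the 3 lists of 100 mg (horizontal axis, bp, positive downstream in the direction of the nearest gene) for the 12 named regions, with 20 mg as circles above and 100 mg as squares below. PRP45, MDS3 and APE3 show tight groups far apart, while in PDA1, VMA1, SCJ1 and PPZ2 the circles are spread.

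Displaced summits in promoter gaps were few, and all 9 can be given by gene, a set chosen after the values were seen: PMP3, PXR1, RPL8B, MUP1, YKL068W-A, NCE103, MSN4, SPG5 and SUT1. MUP1, the methionine permease, had its summit 366, 386 and 383 bp before the start at 20 mg and 409, 473 and 482 bp at 100 mg. MSN4, a transcription factor of the general stress response, had 688, 595 and 561 bp at 20 mg and 528, 539 and 546 bp at 100 mg. PMP3, a small membrane protein, had 212, 208 and 221 bp at 20 mg and 342, 405 and 313 bp at 100 mg. PXR1 had 410, 403 and 407 bp at 20 mg and 416, 422 and 667 bp at 100 mg, so its displacement rests on replicate 3 of 100 mg. SPG5 had its summit 122, 134 and 132 bp before the start at 20 mg, and at 100 mg 48 and 52 bp after it in replicates 1 and 2 and 19 bp before it in replicate 3.

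Chromosomes shared in the difference. Peak numbers were higher in every 20 mg list than in any 100 mg list on 14 of the 16 nuclear chromosomes, with overlap on I and VIII. As a percent of all peaks, 3 of 16 (18.8%) did not overlap: chromosome I had 1.93 ± 0.136% at 20 mg and 2.2599 ± 0.15% at 100 mg, VIII 4.73 ± 0.116% and 5.05 ± 0.101%, and VII 8.86 ± 0.0726% and 8.56 ± 0.118% (SD, n = 3 each). Nuclear tRNA genes, 275 in number, were covered by 50 bp or more in 53.1 ± 11.5% at 20 mg and 58.7 ± 12.7% at 100 mg, with overlap, and none was gained in either direction. The longest peak, 17706 bp in replicate 3 of 20 mg and 17719 bp in replicate 2 of 100 mg, spanned the ribosomal DNA on chromosome XII, and in the other 4 lists no peak was longer than 4103 bp.

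The 20 mg lists resembled each other more than the 100 mg lists did. The Jaccard index of peak length (shared over joint length) was 0.631 to 0.748 among 20 mg lists, 0.545 to 0.575 among 100 mg lists and 0.504 to 0.709 between the biomasses. The mean within biomasses exceeded the mean between them by 0.0438 (one-sided exact permutation p = 0.2 over 10 splits, smallest possible 0.1). The highest value between biomasses, of 20 mg replicate 3 with 100 mg replicate 2, was above all pairs within 100 mg and above the 0.692 and 0.631 of that replicate with the other 20 mg lists.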

How the data were processed

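Peaks were analysed for 3 FAIRE libraries of 20 mg and 3 of 100 mg, with the 3 of 4 mg and 3 of 500 mg for reference. The submitters' processing notes name MACS2 2.1.1.20160309, Bowtie2 2.2.8, FastQC 0.11.5, bedtools 2.26.0 and SAMtools 1.4, with no roles, and build sacCer3 (R64). Neither their settings nor the peak threshold nor the treatment of multiply mapping reads is stated, and read totals and the 12 input libraries were not analysed here, so depth is unknown. Per the labels, the sequencing was single-end and replicates were not pooled: each list comes from 1 FAIRE and input pair.

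The deposited lists give positions in bp, a peak score, a fold enrichment ratio over input at the summit, and −log10 p and −log10 q values, all made by the authors' peak caller. Fold enrichment depends on each library's depth and was not compared between biomasses; its mean over the 3 lists of a biomass served to choose and describe named genes. Whether the replicates came from separate colonies is not stated, so the spread may be technical in part.

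Distinct nuclear summits, turned into 1-based positions, were assigned to classes with the RefSeq gene table of assembly R64, strands taken from systematic names. Its 6002 nuclear coding genes carry no untranslated regions, and 6000 have a full promoter window of 500 bp. Group means were compared by two-sided exact permutation tests with Benjamini-Hochberg adjustment over the 8 classes. Covered means an overlap of 50 bp or more. Named genes were, per direction, the 10 gained promoters and 5 gained coding sequences with the highest mean fold, the 6 largest displacements, and every gained member of 37 gene lists. The members and lists were chosen with earlier results of these data known. The alternatives were peaks of −log10 q of 5 or more, equal numbers of peaks, other windows and limits, a replicate block, and each list left out. Programs were Python 3.11.15, numpy 2.4.6, pandas 2.3.3 and scipy 1.17.1, tested on simulated lists. No genome sequence was used here, so no sequences are printed.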

Additional observations from a re-analysis of the deposited data

Results flagged for a closer look

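Peaks on the mitochondrial chromosome, which no comparison above used, were present in every list. They numbered 31, 3 and 69 in replicates 1, 2 and 3 of 20 mg and 23, 78 and 67 in those of 100 mg. Replicate 2 of 20 mg, the list with the most nuclear peaks, had the fewest of them, and the biomasses overlapped.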

How the results depend on the processing

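Peak number, covered length and the shares of deep coding sequence and of divergent and tandem gaps kept their direction under every alternative that gave a value. The difference in covered length shrank to 222 kb (exact p = 0.4) with equal numbers of peaks, a setting under which peak number itself has no difference by construction. Of results with p above 0.1, the median width difference was 31.7 bp with equal numbers of peaks, that of the first 300 coding bp 0.136 with equal numbers and 0.167 without 100 mg replicate 1, and that of promoters marked -2.33, -0.5 and, with windows of 250 bp, -0.0611 percentage points. Similarity within minus between biomasses was -0.00183 and -0.00661 when replicate 1 or 2 of 20 mg was dropped, within a range of -0.00661 to 0.0987 with any list left out. That range was -0.992 to 0.167 for the first 300 coding bp and -0.5 to 4.04 for promoters marked. The share within 20 kb of a chromosome end did not overlap with equal numbers of peaks, at 4.10 ± 1.29% at 20 mg and 5.67 ± 0.111% at 100 mg.

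Counts of gained features moved with almost every setting. With −log10 q of 5 or more they were 58 promoters, 315 coding sequences and 560 regions at 20 mg, and 7 promoters at 100 mg. With equal numbers of peaks they were 16, 65 and 90 at 20 mg, 23, 17 and 11 at 100 mg, and 45 displaced regions. Windows of 250 and 1000 bp gave 4 and 84 promoters at 20 mg and 6 and 23 at 100 mg. Counting overlap by 50 bp in place of a summit left 0 promoters and 0 coding sequences gained at 100 mg, and displacement limits of 25 and 100 bp gave 127 and 41 regions. With 1 list left out, the counts at 20 mg ranged over 39 to 100 promoters, 203 to 428 coding sequences and 415 to 800 regions, and those at 100 mg over 26 to 42, 14 to 27 and 1 to 65. Displaced regions ranged from 132 to 205. The value of 65 came without 20 mg replicate 3. With equal numbers of peaks, 26 of the named coding sequences lost the call and 16 kept it, and 4 named promoters lost it and 19 kept it. Named promoters that lost the call numbered 20 with windows of 250 bp, 16 with 1000 bp and 14 by overlap, and 3, 7 and 9 kept it. Of the named displacements, those whose region no longer held 1 peak per list gave no value with fewer peaks. Without read totals, peak loss and lower depth cannot be told apart.

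Replicate numbers are shared by the biomasses in the labels, and whether they pair the lists is not stated. Same-numbered lists deviated together with correlations of 0.0197, -0.0444 and -0.0494, and lists of unlike number with -0.0205 to 0.0651. Lists of equal number were thus no more alike in this measure than others. Whether lists of the 2 biomasses shared a preparation was not tested. A replicate block, with a smallest sign-flip p of 0.25, leaves the difference in peak number at 1306 and that of deep coding sequence at 5.43 percentage points, both at exact p = 0.25.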
